A study of Mus musculus with 5 samples.

Results

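Chromosome 7 of the mouse carried few regions occupied by macroH2A1.2-GFP relative to its number of genes, and all regions deposited for it are described here. The members were every region placed on chromosome 7 in the 4 samples with region calls, 2121 of 195585 regions over the 4 samples. The chromosome was chosen by measured values, namely its small number of regions and its small covered share next to its many genes, so its sparse occupancy is given as a description and was not tested. ChIP-Seq with an anti-GFP antibody (ab290) had been done in 3T3-L1 cells, a mouse fibroblast line that can be made to form adipocytes, after lentiviral transduction for stable expression of macroH2A1.2 fused to GFP. Pre-adipocytes were cells before differentiation (2 samples, called replicates 1 and 2), and mature adipocytes were cells after induction for 60 h with IBMX, dexamethasone and insulin and further culture with insulin (2 samples). All 4 samples expressed the tagged histone, so regions are those of the fusion protein made from the lentivirus and not of the endogenous variant. A single library made without antibody served as the control of both conditions. Grouping follows the titles of the samples. The description fields differ from them, since those of both mature samples give the state before differentiation and the one of the control gives GFP cells with the antibody. Where 4 values are listed they stand in the order replicate 1, replicate 2 of pre-adipocytes, then replicate 1, replicate 2 of mature adipocytes. The immunoprecipitation methods mention mouse adipose tissue, whereas the labels name the cell line. No cell type marker can be read from ChIP regions, so the differentiation state of the samples was not checked.

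MacroH2A1.2 is a splice form of the histone variant macroH2A1, which replaces H2A in a part of the nucleosomes and carries a large globular macro domain on its C-terminal side. It is best known for its enrichment on the inactive X chromosome, and on autosomes it forms broad domains that are often found over silent genes. Chromosome 7 of the mouse holds large families of tandem genes, such as those for olfactory and vomeronasal receptors, kallikreins and KRAB-type zinc fingers, together with the imprinted clusters around Snrpn and around Igf2 and Kcnq1.

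Regions that reached a gene start were the exception on this chromosome, and 4 of the promoters touched in at least 2 samples are shown because occupancy and a start coincide there. RefSeq promoter windows (GRCm38.p6, the assembly called mm10) run from 250 bases before to 50 bases after each start. Of 2790 such windows on chromosome 7, 58 were touched by a region in any sample, 13 in at least 2 samples and 1 in all 4 samples. Over the genome 5798 of 32619 windows were touched in any sample and 3113 in at least 2 samples. The 13 include a pair of windows of Gm35363 that lie 1 base apart. The windows of the non-coding genes Gm39033 (chr7:71090747-71091046, forward strand) and Gm32571 (chr7:139360851-139361150, reverse strand) were touched in 3 samples each. For the coding genes Dkkl1 (chr7:45211884-45212133, reverse strand) and Pth (chr7:113388574-113388823, reverse strand), each touched in 2 samples, only the 250 bases before the start are given. Sequences run from 5′ to 3′ on the strand of the gene, and capitals mark CG dinucleotides.
Gm39033: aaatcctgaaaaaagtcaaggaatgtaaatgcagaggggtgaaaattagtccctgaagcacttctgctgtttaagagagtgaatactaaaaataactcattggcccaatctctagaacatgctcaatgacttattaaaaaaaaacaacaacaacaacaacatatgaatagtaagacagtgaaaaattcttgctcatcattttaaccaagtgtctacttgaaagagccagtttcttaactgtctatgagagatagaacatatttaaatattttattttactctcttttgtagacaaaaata
Gm32571: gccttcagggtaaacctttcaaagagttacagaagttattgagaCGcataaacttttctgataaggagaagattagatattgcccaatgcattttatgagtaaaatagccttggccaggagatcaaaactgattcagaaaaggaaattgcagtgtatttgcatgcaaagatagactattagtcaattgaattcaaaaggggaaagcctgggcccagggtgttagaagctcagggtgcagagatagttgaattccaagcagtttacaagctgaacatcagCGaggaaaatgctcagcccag
Dkkl1: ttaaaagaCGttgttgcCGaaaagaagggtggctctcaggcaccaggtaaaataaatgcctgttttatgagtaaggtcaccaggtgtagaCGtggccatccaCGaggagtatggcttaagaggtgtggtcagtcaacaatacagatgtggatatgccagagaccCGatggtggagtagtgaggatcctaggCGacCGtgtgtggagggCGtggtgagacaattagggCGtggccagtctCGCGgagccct
Pth: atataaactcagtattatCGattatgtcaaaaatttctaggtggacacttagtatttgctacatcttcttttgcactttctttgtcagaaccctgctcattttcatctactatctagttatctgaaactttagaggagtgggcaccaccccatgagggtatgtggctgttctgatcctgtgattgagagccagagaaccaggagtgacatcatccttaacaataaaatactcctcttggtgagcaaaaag
CG dinucleotides numbered 0 in the Gm39033 window, 2 in Gm32571, 11 in the shown part of Dkkl1 and 1 in that of Pth. The median was 6 over all chromosome 7 windows, 4 in the 58 touched windows and 3 in the 13 touched in at least 2 samples. The median GC content was 52.3%, 47.5% and 40.7% in the same order. The letters GATAA were searched on both strands (as GATAA or TTATC), since GATA factors are regulators of adipogenesis. They were present in 29.3% of all chromosome 7 windows, in 36.2% of the 58 touched windows and in 69.2% of the 13. Over the genome the shares were 25.4% of all windows, 30.5% of those touched in any sample and 33.1% of those touched in at least 2 samples. The 13 windows were fewer and richer in A and T than the rest, and a match of 5 letters is a description of the sequence and not a binding site.

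At Gm39033 replicate 2 of pre-adipocytes had a region with 67 reads from the ChIP over 77 from the control, and the mature samples had 190 over 88 and 222 over 100. Fold enrichments after scaling by library size were 1.59, 1.76 and 1.84, in that order. At Gm32571 the ChIP and control reads were 137 and 63 in replicate 1 of pre-adipocytes (fold enrichment 1.81), and 86 and 38 (1.84) and 113 and 43 (2.18) in the mature samples. Each of these windows thus lacked a region in 1 pre-adipocyte sample, replicate 1 for Gm39033 and replicate 2 for Gm32571. At Dkkl1, which encodes a secreted protein of spermatocytes, the region of replicate 2 of pre-adipocytes overlapped the window without reaching the RefSeq start. It had the highest fold enrichment of that sample on the chromosome, 15.2, but rested on 25 ChIP reads and 3 control reads in 1200 bp. In replicate 1 of mature adipocytes a region of 3400 bp over that start had 90 reads from the ChIP and 24 from the control, a fold enrichment of 3.06. Pth, the parathyroid hormone gene, had a region over its start in replicate 2 of each condition, with 45 ChIP and 37 control reads before differentiation (fold enrichment 2.22) and 165 and 64 reads after it (2.14).

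Regions on chromosome 7 numbered 321 and 345 in the pre-adipocyte samples and 715 and 740 in the mature samples. Both mature samples lay above both pre-adipocyte samples, with means of 333 ± 17.0 (SD, n = 2) and 728 ± 17.7 (SD, n = 2). The difference of 394.5 regions was larger than the spread between replicates, with a two-sided p of 0.33 (exact permutation test), the smallest that 2 samples against 2 can give. The rise was not limited to this chromosome. The ratio of mature to pre-adipocyte regions was 2.18 on chromosome 7 and between 1.26 and 2.41 on the other 19 chromosomes (median 1.68). Only chromosome 4 had a higher ratio. As a share of all regions of a sample, chromosome 7 held 0.880% and 0.895% in pre-adipocytes and 1.20% and 1.21% in mature adipocytes. A share higher in both mature samples was found for 11 of the 20 chromosomes.

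The regions covered 1.12% and 0.622% of the chromosome in the pre-adipocyte samples and 1.45% and 1.49% in the mature samples. The mature samples were again both higher, at 1.47 ± 0.0243% against 0.869 ± 0.350% (SD, n = 2 each, exact permutation test, p = 0.33). Here the pre-adipocyte replicates differed from each other nearly as much as the conditions did. Replicate 2 of pre-adipocytes was the shallow sample, with a ChIP library 0.549 times the size of the control library, against 1.20, 1.23 and 1.21 in the other samples in the order above. The part of depth in the difference was not tested. Without replicate 2 of pre-adipocytes the difference was 0.353 percentage points. Of all bases covered in a sample, chromosome 7 held 0.580%, 0.651%, 0.718% and 0.758%, in the same order. The means were 0.615 ± 0.0501% in pre-adipocytes and 0.738 ± 0.0286% in mature adipocytes (SD, n = 2 each, exact permutation test, p = 0.33).

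**Figure D1:**
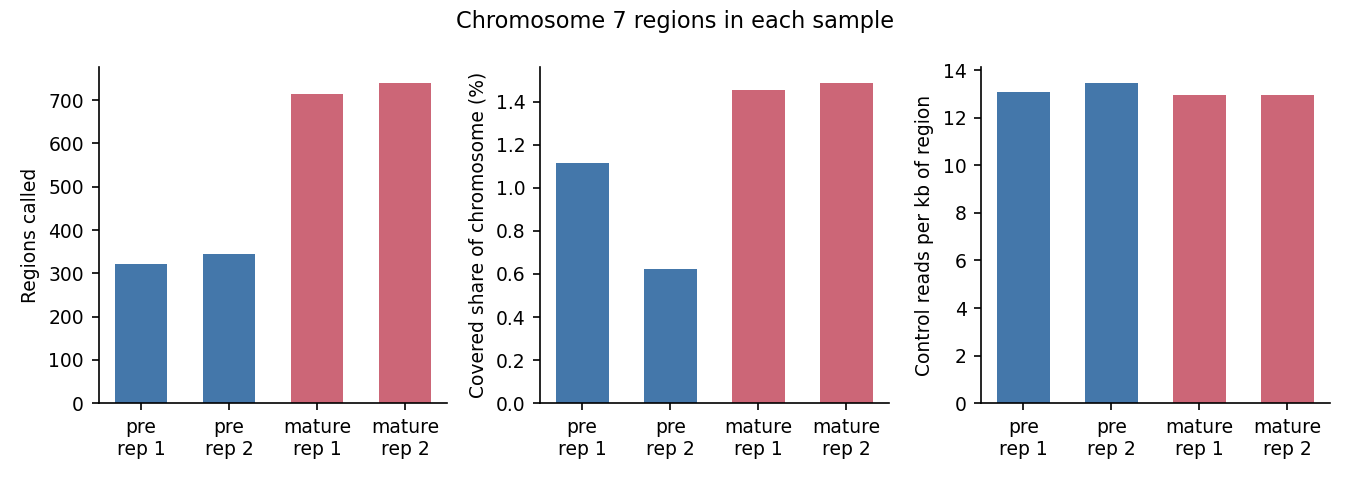
Bars give, for each of the 4 samples, the number of chromosome 7 regions, the share of the chromosome they covered in percent, and the control reads per kb within them (blue, pre-adipocytes, and red, mature adipocytes). The mature samples had 715 and 740 regions and the pre-adipocyte samples 321 and 345, while the control density stayed between 12.9 and 13.5 reads per kb.

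Regions were short on this chromosome. Their median length was 4800 and 2600 bp in the pre-adipocyte samples and 2600 bp in both mature samples, against 5800, 3000, 3600 and 3400 bp over the whole genome. No chromosome 7 region exceeded 30 kb in any sample, and those over 10 kb numbered 10, 0, 1 and 2. Per region the median was 137, 45, 89 and 86.5 reads from the ChIP and 61, 33, 34 and 34 from the control. Both medians were lowest in the shallow sample. Median fold enrichment was 1.93, 2.52, 2.21 and 2.22, above the genome medians of 1.61, 2.01, 1.79 and 1.82 in every sample.

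Tag density, defined as ChIP reads per 100 bp of region on a log2 scale, was compared after division by library size. Its median over chromosome 7 regions was 1.33 and 1.76 in the pre-adipocyte samples and 1.49 and 1.5 in the mature samples. The mature values fell between the pre-adipocyte values, and the difference of -0.05 was smaller than the SD before differentiation, 0.30 (p = 1 by the exact permutation test, n = 2 per condition). Without division by library size the difference turned to 0.54, and without replicate 2 of pre-adipocytes it was 0.17. Divided instead by the sample total of ChIP reads in regions, the means were 2.16 in pre-adipocytes and 1.59 in mature adipocytes. That difference was -0.57 (exact permutation test, p = 0.33), so its size and sign depended on the scaling.

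The control library itself was thin over chromosome 7. Its reads per kb of called region were 13.1, 13.5, 12.9 and 13.0 in the intervals of the 4 samples, in the same order. The mean over samples, 13.1, was the second lowest of the 20 chromosomes, after 13.0 for X, and the other 18 chromosomes ranged from 15.3 on chromosome 14 to 22.3 on chromosome 8. X was also the single chromosome with a smaller mean covered share, 0.938% against 1.17% for chromosome 7, and both had the highest median fold enrichments, 2.33 and 2.22. On chromosome 11, which came next to chromosome 7 in gene density (13.4 against 13.9 protein-coding genes per Mb), the mean covered share was 12.1% and the control density 15.96 reads per kb. On chromosome 12 these values were 3.45% and 19.6 reads per kb, with 5.36 genes per Mb. Over the 20 chromosomes, which share the same libraries, the Spearman correlation with mean covered share was 0.63 for control density and 0.30 for gene density. Control density was read within called regions only, the number of copies of each chromosome in these cells was not measured, and the part of either in the sparse calls was not tested.

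**Figure D2:**
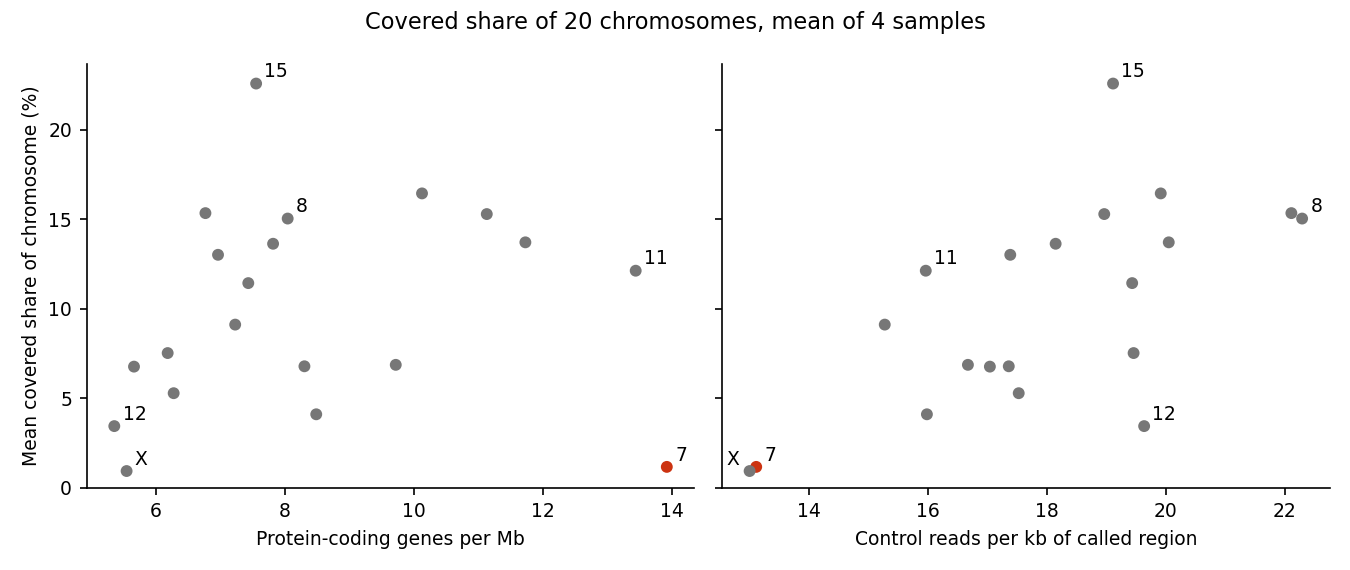
Each point is 1 of 20 chromosomes, with the mean covered share over the 4 samples in percent against protein-coding genes per Mb (left) and control reads per kb of called region (right). Chromosome 7 (red) had the most genes per Mb and, at 1.17%, lay beside X at the low end of both covered share and control density.

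The regions were not spread evenly along chromosome 7. Of its 146 windows of 1 Mb (the last 1 shorter), 46 windows (31.5%) had no region in any sample, 67 had covered bases in all 4 samples, and 33 in 1 to 3 samples. The first region started at 3221401 and the last ended at 145330000, which was taken as the end of the chromosome. Up to 60 Mb, a boundary chosen after the values were seen, the chromosome held 1006 of its 2023 protein-coding gene starts. That stretch carried 33 and 42 regions in the pre-adipocyte samples and 81 and 70 in the mature samples. These were 10.3%, 12.2%, 11.3% and 9.46% of the chromosome's regions, so every sample had about the same small share there. The fullest stretch of 10 Mb lay between 70 and 80 Mb, with a mean covered share of 3.06% and 36 gene starts, followed by that between 80 and 90 Mb with 2.75% and 103 gene starts. Between 100 and 110 Mb, where 320 genes start and the large olfactory receptor cluster lies, the mean covered share was 0.574%. Control density over the stretches of 10 Mb ranged from 9.13 to 15.99 reads per kb of called region.

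A mean covered share above 5% was reached by 8 of the 146 windows (5.48%), against 45.9% of the windows of the genome, 72.1% on chromosome 11 and 22.3% on chromosome 12. The median number of protein-coding gene starts was 3 in these 8 windows and 9 over all chromosome 7 windows. The 36 windows with at least 20 gene starts held 1281 gene starts, and none had a mean covered share above 2.47%. Their median was 0.385%, near the 0.42% of all chromosome 7 windows. Of the 36, 9 had no region in any sample, against 46 of the 146. Across windows the Spearman correlation between mean covered share and number of gene starts was 0.010 on chromosome 7 (n = 146), 0.34 on chromosome 11 (n = 122), 0.39 on chromosome 12 (n = 121) and 0.30 over the genome (n = 2641). Neighbouring windows share domains and the windows share libraries, so these values are descriptions.

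The fullest window, chr7:72000001-73000000, was covered by 16.2% and 7.46% in the pre-adipocyte samples and by 15.5% and 13.2% in the mature samples. It held 30, 24, 48 and 43 regions with 5204, 1416, 5360 and 4606 ChIP reads and 2417, 1158, 2246 and 1878 control reads. Its conditions overlapped, and the start of Mctp2, a gene for a membrane protein with C2 domains, is the single protein-coding start within it. Next came chr7:70000001-71000000 around Nr2f2, the gene of the nuclear receptor COUP-TFII, with 9.56%, 4.22%, 12.3% and 10.1%. Both mature samples were higher there, although the region nearest to Nr2f2 was 71.1 to 85.3 kb away.

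The other windows among the 5 fullest hold several genes each. At chr7:89000001-90000000, which holds Tmem135, the Wnt receptor gene Fzd4, the serine protease gene Prss23, the mitochondrial malic enzyme gene Me3 and Eed of Polycomb complex 2, covered shares were 8.50%, 4.88%, 8.16% and 11.3%. At chr7:82000001-83000000, with Adamtsl3, they were 9.74%, 2.78%, 7.76% and 9.30%. At chr7:134000001-135000000, with Adam12 and Dock1, they were 7.14%, 4.76%, 6.44% and 7.06%. In these 3 windows the conditions overlapped, with the lowest value in replicate 2 of pre-adipocytes each time. The 10 windows with the largest mean covered share over the samples were picked once from that mean, and no ranking was made per sample. They held 46.9%, 37.9%, 36.5% and 37.0% of each sample's covered bases on the chromosome. Between samples the Spearman correlation of covered share over the 146 windows was 0.83 to 0.91.

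**Figure D3:**
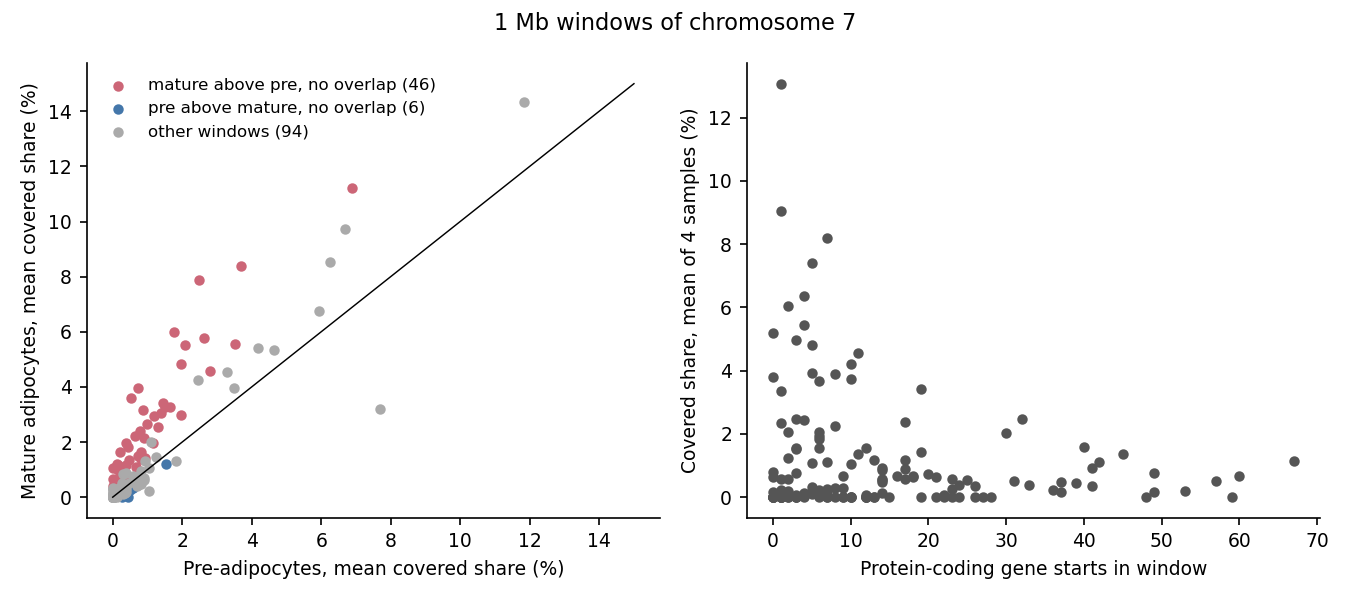
Each point is 1 of the 146 windows of 1 Mb on chromosome 7, with the mean covered share in percent of mature adipocytes against pre-adipocytes (left, line of equality in black) and the mean of the 4 samples against the number of protein-coding gene starts (right). In 46 windows both mature samples lay above both pre-adipocyte samples and in 6 windows below them, and the fullest windows held few gene starts.

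Covered share was higher in both mature samples than in both pre-adipocyte samples in 46 of the 146 windows (31.5%), against 34.1% of the 2641 windows of the genome. The opposite held in 6 windows (4.11%), against 5.38% of the genome's windows. Chromosome 7 was thus near the background in both directions. Counting windows with a region in any sample alone, the shares were 46 of 100 on chromosome 7 and 42.0% over the genome for mature above pre-adipocytes.

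The largest difference was at chr7:91000001-92000000, which lies whole within Dlg2, the gene of a synaptic scaffold protein. Its covered share was 1.96% and 3.02% in pre-adipocytes and 7.26% and 8.52% in mature adipocytes, a difference of 5.40 percentage points. It had 4 and 11 regions before differentiation and 23 and 30 after it. The next were chr7:129000001-130000000 with Plpp4 and Wdr11 (5.52% and 1.86% against 8.36% and 8.40%) and the Nr2f2 window given above. At chr7:114000001-115000000, which holds Pde3b, the phosphodiesterase through which insulin restrains lipolysis in adipocytes, together with Calca and Spon1, the shares were 2.12% and 1.42% against 5.38% and 6.62%. The window without a coding start, chr7:69000001-70000000, had 3.56% and 0.58% against 5.72% and 5.30%.

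Differences in the other direction were small. The largest was at chr7:59000001-60000000, around the imprinted genes Ube3a and Snrpn, with 0.64% and 0.26% in pre-adipocytes and no region in the mature samples. It amounted to 1 region in each pre-adipocyte sample. At chr7:104000001-105000000, where 45 genes start, most of them for olfactory receptors, the shares were 1.64% and 1.42% against 1.18% and 1.24%. At chr7:63000001-64000000, with the nicotinic receptor gene Chrna7, both pre-adipocyte samples had 0.26% and the mature samples none. At chr7:4000001-5000000 they were 0.54% and 0.62% against 0.18% and 0.48%, and at chr7:27000001-28000000 they were 0.62% and 0.40% against 0.30% and 0.22%. All 5 rested on 6 regions or fewer in any sample.

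Regions of the 4 samples that overlapped by at least 1 bp were merged, which gave 1255 merged regions on chromosome 7 of 62927 in the genome. Of the 1255, 62 (4.94%) were called in all 4 samples, against 12857 (20.4%) of the genome, and 765 (61.0%) in 1 sample alone, against 41.2%. On chromosome 12, also sparsely covered, these shares were 8.10% and 53.6%. Both mature samples and neither pre-adipocyte sample had 139 of them (11.1%), where the background was 12.9%. Both pre-adipocyte samples and neither mature sample had 23 (1.83%), where the background was 1.62%. Agreement between replicates was lower than over the whole genome, and single chromosomes were not compared. A region of the other replicate was overlapped by 34.0% and 33.6% of the chromosome 7 regions of the pre-adipocyte samples and by 47.8% and 45.9% of those of mature adipocytes, against 56.7%, 72.8%, 73.8% and 73.9% over the genome. Regions were shorter on this chromosome than over the genome and only X had fewer, and the part of either in these shares was not tested.

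**Figure D4:**
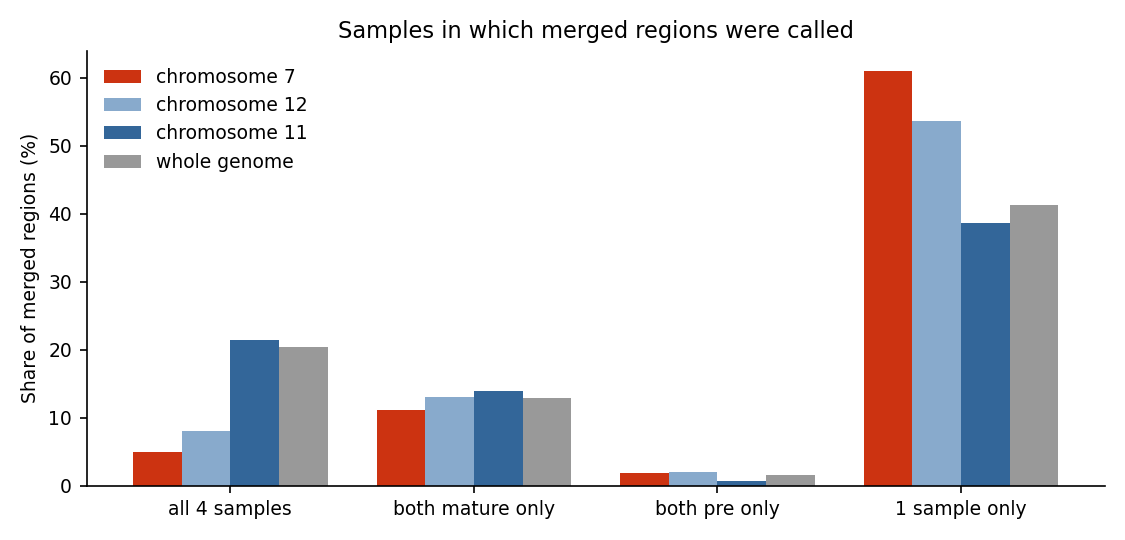
Bars give the share of merged regions in percent that were called in all 4 samples, in both mature samples only, in both pre-adipocyte samples only, or in 1 sample only, for chromosome 7 (red), chromosome 12, chromosome 11 and the whole genome. On chromosome 7, 4.94% were called in all samples and 61.0% in 1 sample, against 20.4% and 41.2% in the genome. On chromosome 12 the shares were 8.10% and 53.6%.

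The longest merged region spanned 20200 bp at chr7:72462801-72483000, between genes and 166 kb from the start of Mctp2. Within it 13800 and 4200 bp were called in the pre-adipocyte samples and 9000 and 15800 bp in the mature samples, with 470, 86, 334 and 574 ChIP reads over 185, 60, 138 and 220 control reads. The second, chr7:89709001-89727600, lay in Me3, with 13200, 3400, 5000 and 13000 bp called. The third, chr7:65406001-65423600, lay in Tjp1, the gene of the tight junction protein ZO-1, with 10000, 2800, 11200 and 12800 bp called. The fourth, chr7:113187201-113204200, was between genes and 11.8 kb from the start of the clock gene Arntl, with 10000, 6200, 7400 and 13200 bp called. The fifth, chr7:72596001-72612400, was called over 16400 bp in replicate 1 of pre-adipocytes, its longest region on the chromosome, and over 7800 and 3200 bp in the mature samples, but not in replicate 2 of pre-adipocytes. The called length was shortest in replicate 2 of pre-adipocytes in each of the 5. The conditions overlapped in all of them but the region in Tjp1, where both mature samples had the longer calls.

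Read density was tested in the 62 regions called in all samples, as part of a fit over the 12857 such regions of the genome with edgeR's quasi-likelihood test, TMM normalization, an offset for called length and Benjamini-Hochberg adjustment. None of the 62 chromosome 7 regions passed an adjusted p of 0.05 in edgeR, against 0.101% of the 12857 regions tested. An unadjusted p under 0.05 in edgeR was found for 4 of the 62, against 1176 of the 12857. DESeq2 also called 0 of the 62, with 0 at an unadjusted p under 0.05. Over the 12857 regions it called only 2, with 217 at an unadjusted p under 0.05. The log2 fold changes of mature over pre-adipocytes ranged from -0.53 to 0.37 with a median of -0.04, against a median of -0.00072 over all regions tested. They were above 0 in 27 and below 0 in 35. This depended on the offset for called length. Without it the range was -1.78 to 0.85 and the median -0.30, against -0.035 over all regions tested. In that fit 17 were above 0 and 45 below, and again none passed. TMM sets the typical region to no change, so these values are relative to the regions shared by all samples and do not bear on a shift common to them.

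The 3 regions with the smallest p in each direction are given as values. Standard errors were computed as the absolute log2 fold change divided by the square root of edgeR's F statistic. The region chr7:82432601-82442400 in Adamtsl3 had 25.8 and 15 ChIP reads per kb in the pre-adipocyte samples and 36.9 and 38.4 in the mature samples, and after scaling a log2 fold change of 0.37 (standard error 0.17, edgeR adjusted p = 0.493). For chr7:113153801-113166000, between genes near Arntl, it was 0.27 (standard error 0.14, edgeR adjusted p = 0.577), and for chr7:93791801-93800600, 716 kb from the nearest coding start, 0.27 (standard error 0.14, edgeR adjusted p = 0.585). In the other direction, chr7:134459401-134468400 had 33.8 and 22.5 reads per kb before and 27.0 and 28.0 after differentiation, a log2 fold change of -0.53 (standard error 0.18, edgeR adjusted p = 0.304). The region chr7:16636201-16642200 near Arhgap35 had -0.52 (standard error 0.18, edgeR adjusted p = 0.308), and chr7:130954001-130964800 over Htra1 had -0.32 (standard error 0.16, edgeR adjusted p = 0.545). Without the offset for called length the fold change of the region near Arntl turned to -0.75, that of the region starting at 93791801 to -0.43 and that of the region near Arhgap35 to 0.13, and that of the region starting at 134459401 shrank to -0.018. Without replicate 1 of pre-adipocytes the value was 0.16 near Arntl and -0.12 over Htra1, and without replicate 1 of mature adipocytes it was 0.16 near Arntl.

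**Figure D5:**
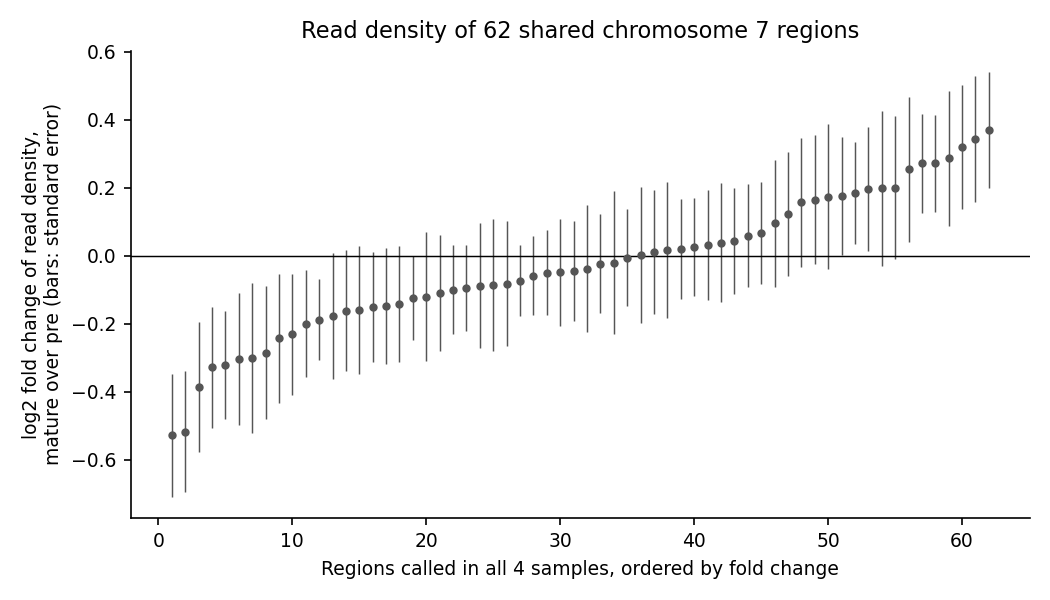
Points give the log2 fold change of ChIP read density, mature over pre-adipocytes, for the 62 chromosome 7 regions called in all 4 samples, in order of the fold change. Bars give a standard error computed from edgeR's fold change and F statistic. With the offset for called length the values ran from -0.53 to 0.37, and none had an adjusted p under 0.05.

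Genes were touched rarely. Of the 2023 protein-coding genes of the chromosome (9.30% of those of the genome), 49 and 69 overlapped a region in the pre-adipocyte samples and 95 and 93 in the mature samples. These were 2.42%, 3.41%, 4.70% and 4.60% of its genes, against 17.3%, 15.03%, 22.01% and 21.97% over the genome. A region in any sample was found in 155 genes (7.66%, against 30.1%), and in all 4 samples in 21 genes (1.04%, against 9.99%). The annotated start lay inside a region for 4, 6, 4 and 1 genes, whereas over the genome this held for 5.90%, 2.22%, 5.55% and 5.22% of genes. Of the bases in regions, 26.2%, 30.1%, 29.96% and 31.2% were in gene bodies, which make up 42.2% of the chromosome, and 1.01%, 1.18%, 1.41% and 1.07% in exons, which make up 4.37%. Each sample thus had a smaller share in genes and in exons than the chromosome itself. The same held over the whole genome, so this was not particular to chromosome 7. There 26.3%, 24.9%, 26.8% and 26.8% of the bases in regions were in gene bodies, which make up 39.4%. In exons they were 1.28%, 1.04%, 1.27% and 1.27%, where exons make up 2.80%. Median distance to the nearest coding start was 67.5, 45.4, 64.3 and 60.6 kb on chromosome 7, against 61.0, 71.2, 60.4 and 61.2 kb over the genome.

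Touched genes were long. The median body was 163 kb for the 21 genes with regions in all samples, 54.7 kb for the 155 and 11.3 kb for all 2023. A region in both mature samples and neither pre-adipocyte sample was found in 24 genes (1.19%, background 3.07%), among them Spon1, Nav2, Sbf2, Adamts17, Il16 and the integrin genes Itgal and Itgad. The opposite was found in 5 genes (0.247%, background 0.45%), namely Olfr655, Dkk3, Mfsd13b, Acer3 and Adam12. Fewer genes had any region on this chromosome, 7.66% against 30.1% over the genome. Among genes with a region in any sample, those of mature adipocytes only were 24 of 155, against 667 of 6552 over the genome. Those of pre-adipocytes only were 5 of 155, against 98 of 6552.

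Among genes with a region in all samples, the largest mean covered share of the body was 24.2% in Prss23, a serine protease gene (28.8%, 17.5%, 23.7% and 26.8% in the 4 samples in the same order). Its start was inside a region in replicate 1 of pre-adipocytes alone, in a region of 10400 bp with 332 ChIP and 178 control reads. Adamtsl3, which encodes a secreted ADAMTS-like protein, had 27.0%, 3.09%, 16.6% and 22.6%, the widest spread between the pre-adipocyte replicates. D7Ertd443e had 16.02%, 10.7%, 11.7% and 18.4%. In Htra1, the gene of another secreted serine protease, the shares were 8.48%, 11.3%, 10.1% and 20.6%, and in Fam169b 6.95%, 10.5%, 15.7% and 15.2%. Me3 had 15.03%, 7.30%, 11.2% and 14.2%. Mean shares of 9.13%, 8.56%, 7.72% and 5.84% were found in Tjp1, in the proprotein convertase gene Pcsk6, in the bHLH-PAS factor gene Arnt2 and in the kinase gene Stk32c. Of these 10 genes, both mature samples exceeded both pre-adipocyte samples in Fam169b, Pcsk6 and Arnt2, and pre-adipocytes were in no gene higher throughout. In Pcsk6 the nearest values of the conditions were 9.12% and 9.22%. The share over all genes was not counted. Over the 1 Mb windows of the genome, both mature samples were higher in 34.1% and both pre-adipocyte samples in 5.38%. Windows are not gene bodies picked for a region in all samples, so the 10 genes have no like background here and no change is read from them.

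Tandem gene families differed in how many members had a region, where the share was 7.66% over all coding genes of the chromosome. The large receptor and zinc finger families lay below it (2.97%, 1.95% and 0.943%), while the Siglec and Nlrp families, with few members, lay above it. Of 236 olfactory receptor genes, 7 had a region in any sample, all between Olfr652 and Olfr670 in the window from 104 to 105 Mb. Olfr655 had its start inside a region in both pre-adipocyte samples, with 129 ChIP and 42 control reads in replicate 1 and 60 and 57 in replicate 2, and in neither mature sample. Olfr668 was touched in both mature samples and in neither pre-adipocyte sample. Of 154 vomeronasal receptor genes 3 were touched (Vmn2r28, Vmn1r61 and Vmn1r183), each in 1 sample, and of 106 zinc finger genes 1, Zfp541, in both mature samples. Regions touched 1 of 28 Ceacam and Psg genes (Ceacam15, in both mature samples with 117 and 109 ChIP reads over 28 and 34 control reads), 1 of 7 Siglec family genes (Cd33), 1 of 19 Mrgpr genes (Mrgprd, in 3 samples), 1 of 15 Cyp2 genes (Cyp2r1) and 2 of 13 Nlrp genes (Nlrp12 and Nlrp2). No region touched any of the 26 kallikrein, 30 Scgb, 16 Trim, 5 beta globin, 3 GABA-A receptor or 5 Krtap genes. Members of a family lie side by side and many are near copies, where uniquely mapping reads are fewer, and the part of that in the missing regions was not tested.

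Of 25 imprinted genes on the chromosome, 4 (16%, against 7.66% of all coding genes of the chromosome) had a region in any sample. In all samples 3 had a region, namely Kcnq1, its antisense RNA gene Kcnq1ot1, and Ins2, where the share over coding genes was 1.04%. Kcnq1ot1 is not a coding gene, so these shares are of unlike sets. Kcnq1 and Kcnq1ot1 overlap and share regions, so they are not separate counts. The bases covered in Kcnq1, a potassium channel gene, were 5000 and 4000 in pre-adipocytes and 23200 and 42000 in mature adipocytes, both mature samples being higher. No region covered its start. In Ins2, which the annotation extends from 142678656 to 142743381, they were 2400, 1600, 6400 and 1400. Its region called in all samples was chr7:142735401-142738400, so this count rests on that span. Ube3a had 6400 bases covered in replicate 1 of pre-adipocytes alone. The nearest region to Igf2 was 68.6 and 70.0 kb away in pre-adipocytes and 3.59 and 70.0 kb in mature adipocytes, and that to H19 between 64.1 and 157 kb.

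Of 44 adipocyte and lipid genes on chromosome 7, 3 (6.82%) had a region in any sample and 1 in all samples. This share was near the 7.66% of all coding genes of the chromosome. Pde3b was touched in 3 samples, over 4200 bp in replicate 2 of pre-adipocytes and over 8800 and 11200 bp in the mature samples. Its regions had fold enrichments from 1.40 to 3.77, and none covered its start. Ucp3, an uncoupling protein gene, had 2000 bp in replicate 2 of pre-adipocytes alone. Fgfr2 was touched in all samples, but the annotation gives it a span from 130162451 to 133123350 that includes Htra1, so this count rests on that span. Sirt2, an NAD-dependent deacetylase gene (chr7:28766735-28788661), had no region, and the nearest was 127 and 161 kb away in pre-adipocytes and 131 and 132 kb away in mature adipocytes. Ccnd1, which encodes cyclin D1 (chr7:144929931-144939925), had none either, with the nearest at 32.5, 212, 34.3 and 49.3 kb. Cebpa, a master regulator of adipogenesis, had none in its body, with the nearest at 7.69, 119, 7.29 and 9.09 kb, and Plin1, the lipid droplet protein gene, none within 76.7 kb. Pnpla2, the adipose triglyceride lipase gene, had none within 74.6 kb. The deposited regions end at an FDR of 0.001, so weaker occupancy at these genes could not be seen.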

How the data were processed

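Single reads were aligned by the authors to mm10 with Bowtie 1.1.2, keeping uniquely mapping reads with up to 2 mismatches. Duplicates were removed with Picard, and regions were called per sample with SICER 1.1 against the library without antibody (versions from the submitters' processing notes, which also name bcl2fastq 2.16). The deposited tables give raw counts of ChIP and control reads per region, neither scaled. The deposited p-value and FDR are those of the authors' SICER run, and the deposited fold enrichment is a ratio that the authors scaled by library size. The promoter touched in all samples is not reported here. The control library has no table of its own among the files used, and total depth is not given there. The factor behind the deposited fold gave the size of the ChIP libraries in units of the control library.

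Region coordinates move in 200 bp steps and were converted to 1-based. Covered bases were counted per 1 Mb window and per gene (GENCODE M21, gene bodies), and regions overlapping by at least 1 bp were merged. Exact permutation tests compared 2 against 2 samples. Merged regions called in every sample entered a genome-wide quasi-likelihood fit in edgeR (adjusted p by Benjamini-Hochberg), in which TMM factors came from counts divided by relative called length. DESeq2 was an alternative. The counting and the fit were tested on simulated data. Replicates are biological per the methods, without further detail.

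Named items are Sirt2 and Ccnd1, the 5 fullest windows, the 5 windows with the largest difference in each direction, the 5 longest merged regions, the 3 regions with the smallest p in each direction, list members with regions in both samples of a condition, and the 10 genes with the largest covered share among those with a region in all samples. Others named in the text were chosen after their values were seen. The chromosome and the gene lists were chosen with earlier results of these data known. Software was edgeR 4.0.16, DESeq2 1.42.0 and limma 3.58.1 under R 4.3.3, and scipy 1.17.1, pandas 2.3.3, matplotlib 3.10.9 and numpy 2.4.6 under Python 3.11.15.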

Additional observations from a re-analysis of the deposited data

How the results depend on the processing

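Over 9 answers to a comparison, 56 of 71 alternatives kept the direction and the side of the threshold or, for counts, stayed within 1.5 times. The differences in region count, covered share and share of covered length kept their direction under every alternative run, with 382 to 407 regions, 0.353 to 0.848 percentage points and 0.0874 to 0.158 percentage points when each sample was left out. The difference in tag density reversed to 0.535 without division by library size, and ranged from -0.262 to 0.166 when each sample was left out, with the positive value without replicate 2 of pre-adipocytes. Divided by the sample total of ChIP reads in regions it was -0.572, which kept the direction but was larger in size. Windows with both pre-adipocyte samples higher numbered 12 with 500 kb windows and 3 with 2 Mb windows, both of which change the number of windows, and 9 to 27 when each sample was left out (27 without replicate 2 of pre-adipocytes, 11 without either mature sample). Genes with regions in both mature samples only numbered 0 at the start site alone and 32 to 49 when each sample was left out (49 and 43 without replicates 1 and 2 of mature adipocytes). Genes with regions in both pre-adipocyte samples only numbered 1 at the start site, 3 with a fold enrichment of at least 2, and 5 to 22 when each sample was left out (22 and 12 without replicates 1 and 2 of pre-adipocytes, 10 without replicate 1 of mature adipocytes). Leaving out a sample asks less of its condition. Without the length offset, the log2 fold changes of the regions near Arntl, starting at 93791801 and near Arhgap35 reversed to -0.75, -0.43 and 0.13, and that of the region starting at 134459401 shrank to -0.018.

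With the replicate number as a block, 0 of the 62 shared regions passed, as in every other fit. Deviations from the mean of each condition correlated at 0.00731 between samples of the same number. The value between different numbers, -0.00731, is fixed as its negative, since each mean is of 2 samples. A single correlation of this kind cannot decide whether samples of the same number belong together. Over the genome the block moved the calls from 13 to 27. Replicate 2 of pre-adipocytes was the shallowest sample, and the part of depth in the calls was not tested.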

Other observations

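The regions with the highest fold enrichment on chromosome 7 were small and rested on few control reads. In replicate 1 of pre-adipocytes it was chr7:96832201-96835000 with 107 reads from the ChIP over 16 from the control (5.56). After differentiation it was, for replicate 1, chr7:143754001-143754600 with 40 and 2 reads (16.3), and for replicate 2 chr7:35108801-35110200 with 54 and 5 reads (8.95). The regions with the most ChIP reads of the mature samples were at the same place, chr7:16650801-16660600 with 424 reads from the ChIP over 173 from the control in replicate 1 and chr7:16651001-16661200 with 442 and 184 in replicate 2, fold enrichments of 2.00 and 1.99. That place lies within the sparse first 60 Mb of the chromosome, next to Ceacam15 and to the region near Arhgap35. All of these were picked after their values were seen.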
